A study of Homo sapiens with 30 samples.

Results

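Hybrid tumoroids of PANC-1, an epithelial cell line from a human pancreatic ductal adenocarcinoma, were compared when their synthetic cells presented PD-1 together with CTLA4 and when they presented no protein. The synthetic cells were DSLBs, oil droplets wrapped in a supported lipid bilayer, and the members were chosen by their sample titles, 3 cultures with PD-1/CTLA4 DSLBs and 3 with plain DSLBs out of 30 cultures in 10 groups. All 30 cultures held wild-type PANC-1 cells, assembled in RPMI with 1% FBS from 100000 cells per culture by the methods for the RNA libraries (50000 to 100000 by the labels) and harvested for RNA once the tumoroids had formed. In the PD-1/CTLA4 cultures recombinant ectodomains of both immune checkpoint receptors were coupled to the droplets through histidine tags, whereas the plain droplets carried none. Hybrids with PD-1 alone, hybrids with PD-1 beside CD2, CD27, CD40L, ICOS, LAG3 or TIGIT, and tumoroids without DSLBs served for further comparisons, each with 3 cultures. None of the 10 groups presented CTLA4 without PD-1, or a protein unrelated to immune signaling, so in the comparison with plain DSLBs the contributions of CTLA4, of PD-1 and of any coupled protein cannot be told apart. The question this comparison addresses is how PANC-1 cells change their transcriptome when neighbouring synthetic cells show them this pair of lymphocyte receptors.

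PD-1 on a lymphocyte binds PD-L1 and PD-L2 on other cells, and CTLA4 binds CD80 and CD86, which are best known from antigen-presenting cells. Binding silences the lymphocyte, but the ligand-bearing cell can also receive a signal, which is called reverse signaling. Pancreatic cancer cells are known for a hypoxic and glycolytic metabolism, for abundant matrix and for weak immunogenicity, and the gene groups below were read with these features in mind.

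RNA was measured as RSEM expected counts per gene, which summed to 31098040, 55320386 and 40275206 in PD-1/CTLA4 replicates 1, 2 and 3 and to 36985509, 36834880 and 25770736 in the plain DSLB replicates. Levels are given as CPM, read counts scaled to a common library size with TMM factors, and differences as log2 fold changes of PD-1/CTLA4 over plain DSLB from edgeR's quasi-likelihood test, in which a gene was called at a Benjamini-Hochberg adjusted p below 0.05 over 18424 genes. On the first principal component (34.1% of the variance), the PD-1/CTLA4 libraries stood at 16.7, 4.0 and 18.8 and the plain DSLB libraries at −27.0, −25.4 and −27.5. PD-1/CTLA4 replicate 2 therefore stood apart from the other 2 libraries of its group, and it also had the most reads, the highest share of counts from mitochondrial genes (6.15%, against 4.57% and 4.20%) and the lowest share from ribosomal protein genes (6.65%, against 7.95% and 8.53%). The plain DSLB libraries held 4.74 to 5.19% mitochondrial and 5.84 to 6.33% ribosomal protein counts. Epithelial markers were abundant in every library (summed level 5816 to 6922 CPM with PD-1/CTLA4 and 4275 to 4604 CPM with plain DSLBs), while the summed levels of lymphocyte markers (1.78 to 2.4 and 1.41 to 2.04 CPM) and of acinar and endocrine pancreas markers (at most 0.165 CPM) stayed low.

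The mRNAs of the known binding partners were at or near 0 in these cells. CD274, which encodes PD-L1 (chr9:5450503-5470566, GRCh38), had 4, 3 and 2 counts with PD-1/CTLA4 and 3, 4 and 3 counts with plain DSLBs, and at most 8 counts in any of the 30 libraries. PDCD1LG2, which encodes PD-L2, had 0 counts in all 6 libraries and was seen in 4 of 30. CD80 had 1 count over the 3 PD-1/CTLA4 libraries and 0 over the plain DSLB libraries, and CD86 had 0 counts in all 6. In a single library a level of up to 3 counts, which is 0.0550 to 0.0987 CPM per PD-1/CTLA4 library and 0.0790 to 0.114 CPM per plain DSLB library, is compatible with a count of 0, with counting error only. CD274 however had a count in 29 of the 30 libraries, so its mRNA was detected at a low level. The paper reports soluble PD-L1 protein in the medium of PANC-1 hybrids, which these mRNA counts do not address. None of the 4 genes passed the filter on low counts, so a difference in any of them was not detectable at this depth. Cellular transcripts of the presented receptors were also scarce, with 36 counts of PDCD1 over the 3 PD-1/CTLA4 libraries against 33 over the plain DSLB libraries, and 0 counts of CTLA4 in all 30.

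With PD-1/CTLA4 DSLBs 3134 genes were higher (17.0% of those tested) and 3161 were lower (17.2%) than with plain DSLBs. Of these, 384 rose and 301 fell by at least 2-fold. The median log2 fold change over all genes was 0.01, and its standard error for a single gene was 0.116 in the median. After a trend of counts along gene length was removed from each library, the split was 3037 higher and 1902 lower. Leaving out PD-1/CTLA4 replicate 1 gave 2079 genes higher and leaving out its replicate 3 gave 2033, whereas 3225 were higher and 3616 lower without replicate 2. The 3 PD-1/CTLA4 libraries did not overlap the 3 plain DSLB libraries for 47.6% of genes, so a lack of overlap is common here and is given below only as a description. Against tumoroids without DSLBs, 6019 genes were called with PD-1/CTLA4 (32.7%), whereas plain DSLBs differed from no DSLBs in 2 genes (1123 genes at an unadjusted p below 0.05). The first of these shares the PD-1/CTLA4 cultures and the second the plain DSLB cultures with the main comparison.

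Genes of the hypoxia response and of glycolysis had the largest median rises among the lists examined. Hypoxia-inducible transcription factors switch on glucose uptake, glycolysis, mitophagy and vessel growth when oxygen is short, and their targets bear a short DNA element with the core ACGTG. Of 20 hypoxia response genes 17 were higher and none was lower with PD-1/CTLA4 (median log2 fold change 0.80, against 0.01 for all genes, of which 17.0% were higher), and of 18 glycolysis genes all 18 were higher (median 0.56). Some of their promoters are shown because they hold that core, together with promoters from the other groups described below. Each line gives the 250 bases upstream of the RefSeq transcription start (GRCh38.p14), read 5′ to 3′ on the strand of the gene, with the matched motif in capitals. Runs of CACGTG hold ACGTG on both strands and are also the sequence of an E-box.
ALDOC (chr17:28576896-28577145, minus strand): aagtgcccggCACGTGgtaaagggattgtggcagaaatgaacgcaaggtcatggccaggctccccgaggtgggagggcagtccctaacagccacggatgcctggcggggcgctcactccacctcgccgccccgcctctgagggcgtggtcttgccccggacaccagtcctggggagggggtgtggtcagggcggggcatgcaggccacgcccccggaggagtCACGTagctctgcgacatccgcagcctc
HK2 (chr2:74833877-74834126, plus strand): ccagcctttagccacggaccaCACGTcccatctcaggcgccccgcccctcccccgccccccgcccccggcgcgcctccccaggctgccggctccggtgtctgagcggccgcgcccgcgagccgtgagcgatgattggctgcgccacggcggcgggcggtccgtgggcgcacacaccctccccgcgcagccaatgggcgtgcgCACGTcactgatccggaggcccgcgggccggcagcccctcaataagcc
BNIP3 (chr10:131981924-131982173, minus strand): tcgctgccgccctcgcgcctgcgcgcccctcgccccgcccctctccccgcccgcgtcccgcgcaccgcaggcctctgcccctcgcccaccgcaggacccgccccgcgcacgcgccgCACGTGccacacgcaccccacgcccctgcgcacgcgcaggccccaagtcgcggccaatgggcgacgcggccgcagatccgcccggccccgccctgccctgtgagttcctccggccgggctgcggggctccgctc
ATF3 (chr1:212565157-212565406, plus strand): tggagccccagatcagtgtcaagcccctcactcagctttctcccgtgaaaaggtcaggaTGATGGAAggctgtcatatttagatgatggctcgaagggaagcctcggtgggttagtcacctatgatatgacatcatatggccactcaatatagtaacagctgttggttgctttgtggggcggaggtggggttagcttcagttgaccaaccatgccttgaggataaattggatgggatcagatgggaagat
CHAC1 (chr15:40953221-40953470, plus strand): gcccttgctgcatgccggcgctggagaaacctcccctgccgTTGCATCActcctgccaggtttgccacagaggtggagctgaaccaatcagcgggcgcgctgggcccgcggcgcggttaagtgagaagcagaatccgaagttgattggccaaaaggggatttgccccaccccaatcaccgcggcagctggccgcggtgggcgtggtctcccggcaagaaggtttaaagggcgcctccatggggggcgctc
MCM6 (chr2:135876444-135876693, minus strand): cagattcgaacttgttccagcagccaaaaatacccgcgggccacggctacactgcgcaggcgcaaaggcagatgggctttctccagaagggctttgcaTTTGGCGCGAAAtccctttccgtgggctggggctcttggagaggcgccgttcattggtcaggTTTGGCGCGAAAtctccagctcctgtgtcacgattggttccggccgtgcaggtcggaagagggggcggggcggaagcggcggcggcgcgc

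ACGTG, searched on both strands, was found in 8 of the 17 hypoxia response genes with a listed promoter and in 8 of the 18 glycolysis genes, and in 21.8% of the promoters of the genes tested. ALDOC, which encodes the aldolase C isoform of glycolysis (chr17:28573115-28576948), stood at 95.7, 88.6 and 88.3 CPM with PD-1/CTLA4 and at 21.8, 26.5 and 25.1 CPM with plain DSLBs. All 3 PD-1/CTLA4 libraries were far above the plain ones (log2 fold change 1.89 with a standard error of 0.116; edgeR, adjusted p = 7.62e-12). HK2, hexokinase 2, which commits glucose to the pathway, had 31.1, 37.8 and 33.6 CPM against 15.4, 12.3 and 18.1 CPM (log2 fold change 1.17), and the groups did not overlap. PFKFB4, a regulator of phosphofructokinase that is a known hypoxia target, was at 56.2, 59.6 and 61.8 CPM with PD-1/CTLA4 and at 19.6, 14.2 and 23.3 CPM with plain DSLBs (log2 fold change 1.65). BNIP3, a mitophagy receptor, had 349, 347 and 409 CPM against 157, 176 and 184 CPM. PDK1, a kinase that inhibits pyruvate dehydrogenase, averaged 58.6 ± 5.93 CPM against 25.6 ± 2.19 CPM (SD, n = 3 each). The mRNAs that rose thus included those for glucose phosphorylation (HK2) and for the control of pyruvate oxidation (PDK1), and metabolic flux was not measured. The abundant enzymes moved less, with GAPDH at 4955 against 3052 CPM on average (log2 fold change 0.70) and LDHA at 2005 against 1518 CPM (0.40). Only EGLN3, BHLHE40 and LOX of the hypoxia list were not called (log2 fold changes −0.28, 0.44 and −0.15). APLN, the vessel-active peptide apelin, was among the largest rises of all genes, with 2.24, 2.13 and 2.31 CPM against 0.503, 0.948 and 0.648 CPM.

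The plot of 16 genes by library shows members of the groups that rose and of those that fell, each with its 3 values per group.

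**Figure D1:**
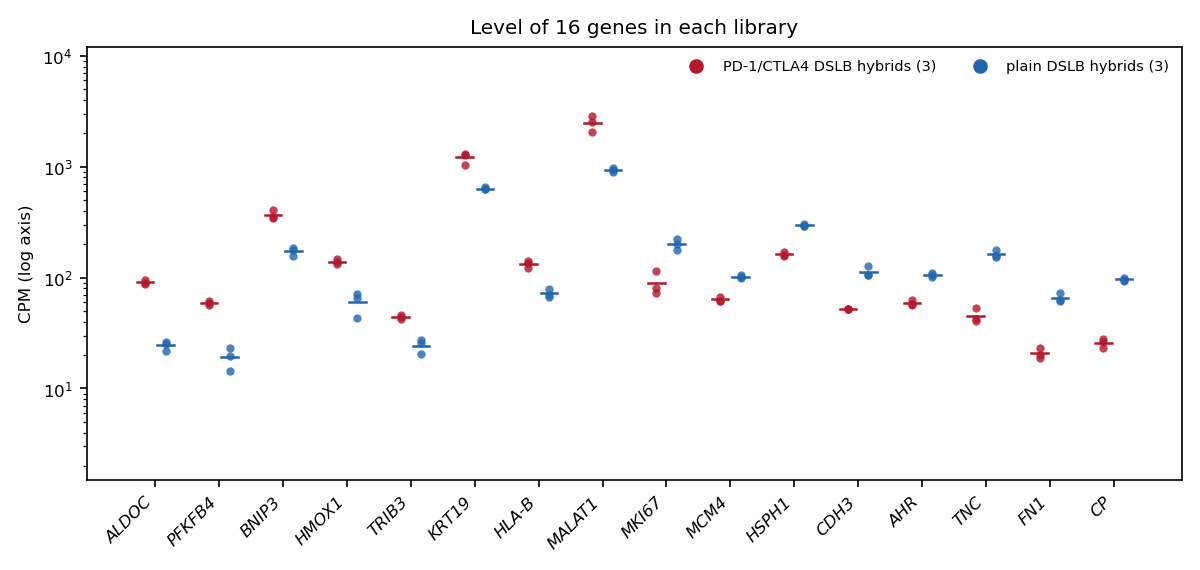
Level in CPM (log axis) of 16 genes in the 3 PD-1/CTLA4 DSLB libraries (red, left) and the 3 plain DSLB libraries (blue, right), with a point per library and a line at the mean. For all 16 genes the groups do not overlap: ALDOC to MALAT1 were higher with PD-1/CTLA4, for example ALDOC at 88.3 to 95.7 CPM against 21.8 to 26.5 CPM, and MKI67 to CP were lower.

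The amino acid branch of the stress response rose as well, whereas the main chaperones of the endoplasmic reticulum did not pass the test. ATF4 is a transcription factor made when cells lack amino acids or accumulate unfolded protein, and its targets bear elements that resemble TGATGNAA. Of 18 genes in this list 11 were higher, 1 was lower (the co-chaperone DNAJC3, −0.34) and 6 were not called (median log2 fold change 0.52). The shares of all genes were 17.0% higher and 17.2% lower. Those that rose were ATF4 itself, its partner DDIT3, its feedback inhibitor TRIB3 (44.2, 42.6 and 46.4 CPM against 27.1, 20.6 and 25.6 CPM, log2 fold change 0.86), ATF3 (10.7, 13.2 and 11.3 CPM against 7.79, 5.90 and 6.10 CPM, 0.83), CHAC1, SESN2, DDIT4, HERPUD1 and the amino acid enzymes ASNS, PHGDH and PSAT1. HSPA5 and HSP90B1, the main chaperones of the endoplasmic reticulum, had log2 fold changes of 0.07 and −0.05. TGATGNAA occurred in 4 of 18 promoters of the list, ATF3 and CHAC1 among them, and in 1.7% of promoters of the genes tested. HMOX1, the heme-degrading enzyme induced by oxidative stress, averaged 139.5 ± 8.33 CPM with PD-1/CTLA4 and 60.05 ± 14.8 CPM with plain DSLBs (log2 fold change 1.22), and 6 of 12 NRF2 targets were higher and none lower (median 0.24), though 2 were higher without plain DSLB replicate 2. Heat shock chaperones went the other way in part: 6 of 12 were lower and HSPB1 alone was higher (0.52). HSPH1, the co-chaperone HSP110, was at 160, 171 and 155 CPM against 292, 294 and 301 CPM (log2 fold change −0.87, standard error 0.0626), a narrow separation within each group and a wide one between them.

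Genes of the cell cycle were lower. Among all genes 17.0% were higher and 17.2% lower. Of 20 genes of mitosis 17 fell and 1 rose (median log2 fold change −0.48), of 20 DNA replication genes 17 fell and none rose (median −0.42), and 7 of 11 replication-dependent histone genes fell (median −0.46). MKI67, the proliferation marker Ki-67, had 80.6, 115 and 73.2 CPM with PD-1/CTLA4 and 224, 178 and 201 CPM with plain DSLBs (log2 fold change −1.17 with a standard error of 0.190; edgeR, adjusted p = 7.32e-05). PD-1/CTLA4 replicate 2 had the highest of the 3 values but stayed below every plain DSLB library. TOP2A, the topoisomerase that untangles replicated chromosomes, was at 139, 157 and 144 CPM against 262, 235 and 252 CPM (−0.77), and CENPF, a kinetochore protein, at 97.3, 119 and 86.9 CPM against 210, 173 and 194 CPM (−0.93). Among the replication genes, MCM4, a subunit of the replicative helicase, averaged 63.6 ± 3.39 CPM against 101.7 ± 3.10 CPM (−0.68), and MCM6, of the same helicase, averaged 53.5 ± 1.68 CPM against 72.7 ± 2.74 CPM (−0.44). E2F transcription factors are known regulators of replication genes, with sites TTTGGCGC, TTTCGCGC or TTTCCCGC on either strand. Such sites were present in 10 of 18 promoters of the replication list, in 1 of 16 of the mitosis list and in 3.3% of promoters of the genes tested. The MCM6 promoter above has 2 such runs. The part of E2F factors in these falls was not tested. Of 16 G1 cyclins, CDKs and E2F genes 10 fell and 1 rose (CCND2, cyclin D2, 1.13 ± 0.262 CPM against 0.486 ± 0.0563 CPM, 1.23). The falls were led by CDK6 (30.1 ± 4.40 CPM against 59.0 ± 1.35 CPM, −0.97) and had E2F1, E2F2 and CCNE2 among them, while CCND1 and the inhibitor CDKN1A had log2 fold changes of −0.10 and 0.13. UBE2C, a ubiquitin-conjugating enzyme of mitotic exit, was the exception in the mitosis list, at 47.0 ± 4.12 CPM against 35.2 ± 1.47 CPM (0.42). In bulk RNA, fewer dividing cells and less of these transcripts per dividing cell cannot be told apart.

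Some matrix genes were among the largest falls. Of 16 extracellular matrix genes 10 were lower and 1 was higher (median log2 fold change −0.48). TNC, tenascin-C, a matrix protein of wounds and tumors, stood at 41.0, 52.8 and 42.1 CPM with PD-1/CTLA4 and at 177, 154 and 157 CPM with plain DSLBs (log2 fold change −1.84 with a standard error of 0.120; edgeR, adjusted p = 2.47e-11). FN1, fibronectin, had 20.2, 23.3 and 18.9 CPM against 72.7, 61.9 and 63.5 CPM (−1.67), COL12A1 averaged 12.9 ± 1.94 CPM against 31.1 ± 2.60 CPM (−1.26), and COL1A1 526 ± 96.5 CPM against 772 ± 32.4 CPM (−0.55). SPARC, a collagen-binding glycoprotein, was the member that rose, at 181, 175 and 167 CPM against 109, 90.9 and 97.1 CPM (0.81). Transcripts in this list are long, with a median of 5428 bases against 1986 bases for all genes tested, and after a trend of counts along gene length was removed from each library 5 members were lower and 4 higher (median −0.18), with TNC and, outside the list, FN1 still lower. Of 22 integrins and actin-adhesion linkers 7 were lower and 2 higher (median −0.09), against 17.2% and 17.0% of all genes. Without the length trend 6 of them were higher and none lower. Of 15 genes of epithelial and mesenchymal state 5 were higher and 5 lower, and CDH1, CDH2 and CDH3, the cadherins of that list, were among the lower ones. CDH3, P-cadherin, had 52.2, 52.6 and 52.3 CPM against 128, 105 and 107 CPM (−1.11), and CDH1, E-cadherin, 58.1, 59.8 and 53.5 CPM against 97.9, 83.0 and 85.6 CPM (−0.64). In contrast the keratins KRT8, KRT18 and KRT19 of simple epithelium rose, KRT19 to 1310, 1044 and 1281 CPM against 651, 624 and 624 CPM (0.94), and so did vimentin (VIM, 3626 ± 19.5 CPM against 2611 ± 43.8 CPM, 0.47), the intermediate filament of mesenchymal cells. The fibroblast marker COL3A1 was at 5.04 to 7.24 CPM against 15.6 to 17.2 CPM. The 10 fibroblast and endothelial markers, none of them at 0 in all 6 libraries, summed to 7.35 to 10.0 CPM with PD-1/CTLA4 and to 17.7 to 19.7 CPM with plain DSLBs, and their part in the matrix values was not tested.

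Other large falls were in secreted proteins and regulators. CP, ceruloplasmin, the copper-carrying ferroxidase of plasma (chr3:149162410-149221829), had 23.3, 27.7 and 26.3 CPM with PD-1/CTLA4 and 95.9, 94.1 and 99.3 CPM with plain DSLBs, and its adjusted p was the smallest of all genes (log2 fold change −1.90 with a standard error of 0.103; edgeR, adjusted p = 1.04e-12). NTS, the gut peptide neurotensin, showed the largest fall among the genes named by the rule, to 1.28, 0.990 and 1.403 CPM against 9.49, 7.24 and 10.2 CPM (−2.88). MECOM, a zinc-finger transcription factor, averaged 3.43 ± 0.0979 CPM against 13.6 ± 1.07 CPM (−1.99), and VAV3, a guanine nucleotide exchange factor, 1.24 ± 0.0250 CPM against 5.41 ± 0.146 CPM (−2.12). IGSF10, VIT, SEMA5A, IGSF9, DIPK1C, COL14A1 and LRP1B were other annotated genes among the 15 largest falls, with log2 fold changes of −2.18 to −1.71. Among the largest rises, in contrast, 12 of the 15 were noncoding or unannotated records, pseudogenes or members of repeated families. Reads of near-identical copies cannot be assigned with certainty, and the 4 records of the 5.8S rRNA had the same values. RMRP, the RNA of an endoribonuclease for rRNA and mitochondrial primers, was at 5.82, 2.38 and 3.73 CPM against 0.186, 0 and 0.458 CPM (edgeR adjusted p = 0.00114).

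Transcripts of part of the MHC class I pathway were higher, and the change in interferon-related genes was uneven. Of 14 genes of MHC class I and peptide loading 8 were higher and none was lower (median log2 fold change 0.37), against 17.0% and 17.2% of all genes. HLA-B had 136, 122 and 142 CPM with PD-1/CTLA4 and 79.5, 69.8 and 66.8 CPM with plain DSLBs (0.89), and B2M, the light chain shared by all class I molecules, averaged 596 ± 32.7 CPM against 410 ± 18.1 CPM (0.54). The HLA genes are close relatives, so the split of reads among them is uncertain, whereas B2M has no such copy. The immunoproteasome subunits PSMB8, PSMB9 and PSMB10, which cut peptides for class I, rose by log2 0.66, 0.55 and 0.75, and PD-1/CTLA4 replicate 2 was the lowest of its group for each of them (22.9, 8.29 and 13.1 CPM). The transporters TAP1 and TAP2 had log2 fold changes of 0.23 and 0.08, and of these TAP1 passed the test. In the interferon list 12 of 21 genes were higher and 2 lower, the antiviral enzyme OAS3 among them (median 0.51), and the higher ones included IFIT1, IFIT2, IFIT3 and ISG15. Without PD-1/CTLA4 replicate 3, 7 were higher, and without plain DSLB replicate 3, 6. IFIT2 was at 33.6, 29.5 and 28.3 CPM against 17.4, 17.7 and 17.0 CPM (0.81), and the groups did not overlap.

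Of 11 chemokine and cytokine genes 3 rose and 2 fell, shares near those of all genes (17.0% higher and 17.2% lower). IL32 (7.54 ± 1.70 CPM against 3.69 ± 0.560 CPM, log2 fold change 1.01), IL11 (0.74) and IL18 (0.58) rose, and the neutrophil attractants CXCL1 (2.75 ± 0.112 CPM against 4.65 ± 0.426 CPM, −0.77) and CXCL8 (−0.84) fell. CCL2, the monocyte attractant, had 8.36, 7.33 and 7.34 CPM against 8.53, 7.503 and 8.85 CPM and was not called (−0.11, standard error 0.152, edgeR adjusted p = 0.607). Among 11 factors known to restrain lymphocytes 5 rose and 1 fell: the galectins LGALS1 (551 ± 101.2 CPM against 336 ± 14.6 CPM, 0.71) and LGALS3 (0.46), VEGFA (232 ± 17.3 CPM against 138 ± 15.7 CPM, 0.74), ARG2 and TGFB1 (0.22) were higher, and NT5E, the adenosine-forming CD73, was lower (−0.32). Without plain DSLB replicate 2, 3 of them were higher. With a trend along gene length removed from each library 5 of the 11 were higher and none was lower. With a GC trend removed 4 were higher and none was lower, so the fall of NT5E was not called in either fit. The 8 myeloid markers, of which 3 were at 0 in all 6 libraries, summed to 42.3 to 51.2 CPM with PD-1/CTLA4 and to 33.4 to 35.4 CPM with plain DSLBs, and their part in these values was not tested. NF-kB genes split as well, with 6 of 12 higher and 3 lower. After a trend of counts along GC content was removed from each library, 3 were higher and 2 lower. With a trend along gene length removed instead, 5 were higher and 1 lower. ICAM1, an adhesion molecule for leukocytes, had 142, 151 and 137 CPM against 105, 83.6 and 92.8 CPM (0.61), NFKB2 rose by 0.44, and REL fell by 0.84 on the log2 scale.

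Some signaling components were lower. AHR, the aryl hydrocarbon receptor, stood at 56.1, 63.2 and 57.7 CPM with PD-1/CTLA4 and at 105, 110 and 100 CPM with plain DSLBs (log2 fold change −0.83, standard error 0.0888), and its target CYP1B1 at 125, 130 and 112 CPM against 221, 213 and 206 CPM (−0.80). Together with ARNT, ARNT2 and TIPARP they were the 5 of 11 AhR genes that fell, and none rose with all libraries, against 2 without PD-1/CTLA4 replicate 2 and 1 with DESeq2 on the compared libraries. Leaving out PD-1/CTLA4 replicate 1 or 3, or plain DSLB replicate 1 or 2, left 3 of the 11 lower. The YAP targets CCN1 (88.1 ± 6.92 CPM against 132.1 ± 5.21 CPM, −0.59) and CCN2 (38.1 ± 4.50 CPM against 67.0 ± 6.05 CPM, −0.81) fell, and so did TEAD1, the DNA-binding partner of YAP (−0.64), in a list of 18 Hippo pathway genes with 11 lower and 1 higher. NOTCH1 (32.5 ± 3.94 CPM against 52.1 ± 2.45 CPM, −0.68) and its ligand JAG1 (25.6 ± 3.09 CPM against 44.2 ± 3.43 CPM, −0.78) were lower too, in a list of 13 Notch genes with 5 lower and 2 higher, and the Notch target HES1 had a log2 fold change of 0.04. Without the length trend the Hippo list had 6 lower and 1 higher, the Notch list 3 lower and 3 higher and the AhR list 2 lower. Without the GC trend the Hippo list had 10 lower and 2 higher, the Notch list 5 lower and 2 higher and the AhR list 3 lower and 1 higher. Of all genes 17.0% were higher and 17.2% lower. Median transcript lengths were 2894 bases for the AhR list, 3661 for the Hippo list and 3391 for the Notch list. Among genes of 2345 to 3482 bases 23.5% were lower, and among longer ones 41.7%.

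Transcript length moved with the comparison as a whole. Genes called higher had a median length of 1552 bases and those called lower of 3414 bases. Their median GC contents were 54.1% and 45%, against 48.4% for all genes tested. With a GC trend removed from each library, 3278 genes were higher and 2738 lower. The genes tested were ordered by length into 5 bins of equal gene number. In the bin with the shortest transcripts 22.1% were higher and 2.90% lower, and in the bin with the longest 5.59% were higher and 41.7% lower, with median log2 fold changes of 0.23 and −0.21. The trend was present in each PD-1/CTLA4 library against the mean of the plain DSLBs, at −0.24, −0.09 and −0.30 for the longest bin in replicates 1, 2 and 3, and was weakest in replicate 2. The sources used here give no RNA integrity values, and the part of RNA quality in the trend was not tested.

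**Figure D2:**
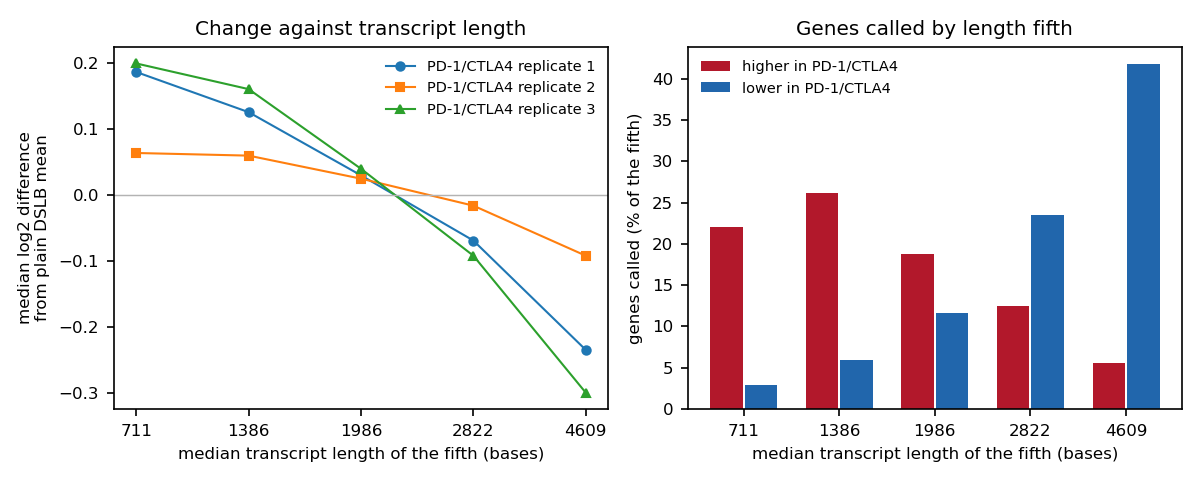
Left, median log2 difference of each PD-1/CTLA4 library from the mean of the 3 plain DSLB libraries, over 5 bins of the 18424 genes ordered by transcript length; right, the share of each bin called higher (red) or lower (blue) with PD-1/CTLA4. The share called higher was 22.1% in the shortest and 5.59% in the longest bin, and the share called lower 2.90% and 41.7%.

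Counts for lists of very short or very long transcripts moved when this trend was removed. Of all 18424 genes tested 17.0% were higher and 17.2% lower, and without the trend 3037 were higher and 1902 lower. Of 77 cytosolic ribosomal protein genes, whose transcripts have a median length of 608 bases, 62 were higher and none lower (median log2 fold change 0.37), but 15 were higher without the trend (median 0.17). Their median against the plain DSLB mean was 0.43, 0.16 and 0.50 in PD-1/CTLA4 replicates 1, 2 and 3, and 37 were higher without replicate 1, 31 without replicate 3 and 41 without plain DSLB replicate 1. Of 23 nuclear-encoded respiratory chain genes 17 were higher and 1 lower, and 7 and 0 without the trend. Leaving out PD-1/CTLA4 replicate 1 or 3 left 8 or 9 of them higher, and leaving out plain DSLB replicate 1 left 11. Large ubiquitin ligases and deubiquitinases, such as HUWE1 (372 ± 65.5 CPM against 575 ± 22.9 CPM), gave 11 of 15 lower (median −0.33), and 5 lower and 1 higher without it (−0.09). Without PD-1/CTLA4 replicate 3, 7 of these were lower. The hypoxia list had 18 of 20 higher without the trend (median 0.79), glycolysis 16 of 18 (0.52), the ATF4 list 12 of 18 (0.47), MHC class I 10 of 14 (0.37), DNA replication 16 of 20 lower (−0.32) and mitosis 16 of 20 lower (−0.45). Hypoxia, ATF4 and DNA replication also had like values in the library that stood apart. The hypoxia medians were 0.65, 0.76 and 0.82, the ATF4 medians 0.52, 0.49 and 0.51, and the DNA replication medians −0.43, −0.42 and −0.40 in replicates 1, 2 and 3.

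**Figure D3:**
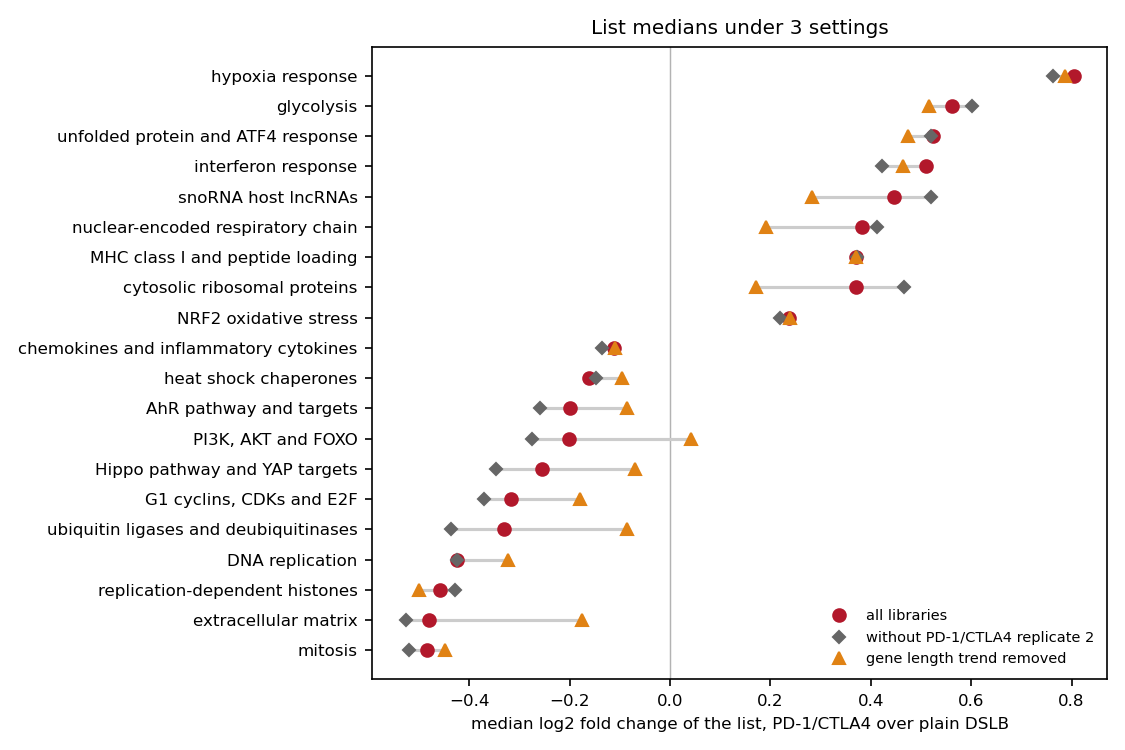
Median log2 fold change of PD-1/CTLA4 over plain DSLB for 20 gene lists, with all libraries (red circles), without PD-1/CTLA4 replicate 2 (grey diamonds) and with the gene length trend removed (orange triangles). Hypoxia response (0.80, 0.76 and 0.79 under the 3 settings) and mitosis (−0.48, −0.52 and −0.45) stayed in place, whereas cytosolic ribosomal proteins moved (0.37, 0.47 and 0.17).

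Adding CTLA4 to PD-1 was tested by the comparison of PD-1/CTLA4 with PD-1 hybrids. It called 8 genes (0.0434%), all higher, while 2445 genes had an unadjusted p below 0.05. DESeq2 on all libraries called 86 genes and on the 6 compared 141, and edgeR called 75 without PD-1/CTLA4 replicate 2 but 1 without its replicate 1, 5 without its replicate 3, 1 without PD-1 replicate 1 and 2 without PD-1 replicate 2. PD-1 alone against plain DSLBs called 4054 genes (22.0%), and this comparison shares its control cultures with the main one, so the values are given side by side only. The lower count than for PD-1/CTLA4 depended on the fit. With the compared libraries only, edgeR called 6138 genes for PD-1 and 6156 for PD-1/CTLA4 against plain DSLBs, and DESeq2 called 5333 and 5575. Hypoxia response genes were 14 higher and 1 lower with PD-1 alone (median 0.70), glycolysis 18 higher (0.60), mitosis 13 lower and 1 higher (−0.36), DNA replication 15 lower (−0.30) and extracellular matrix 10 lower and 1 higher (−0.43). The direct difference of PD-1/CTLA4 from PD-1 was 0.02 ± 0.109 for ALDOC (log2, standard error), −0.06 ± 0.118 for TNC, 0.18 ± 0.103 for CP and −0.25 ± 0.189 for MKI67, and none of these passed. VEGFA (0.30 ± 0.122), AHR (−0.35 ± 0.0886) and IL11 (0.43 ± 0.112) had larger differences, which did not pass either. The plot of gene lists by library places the PD-1/CTLA4 cultures among those with the other PD-1 droplets: the hypoxia medians of the 21 libraries in the other 7 PD-1 groups ran from 0.44 to 0.85 and their DNA replication medians from −0.52 to −0.19.

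**Figure D4:**
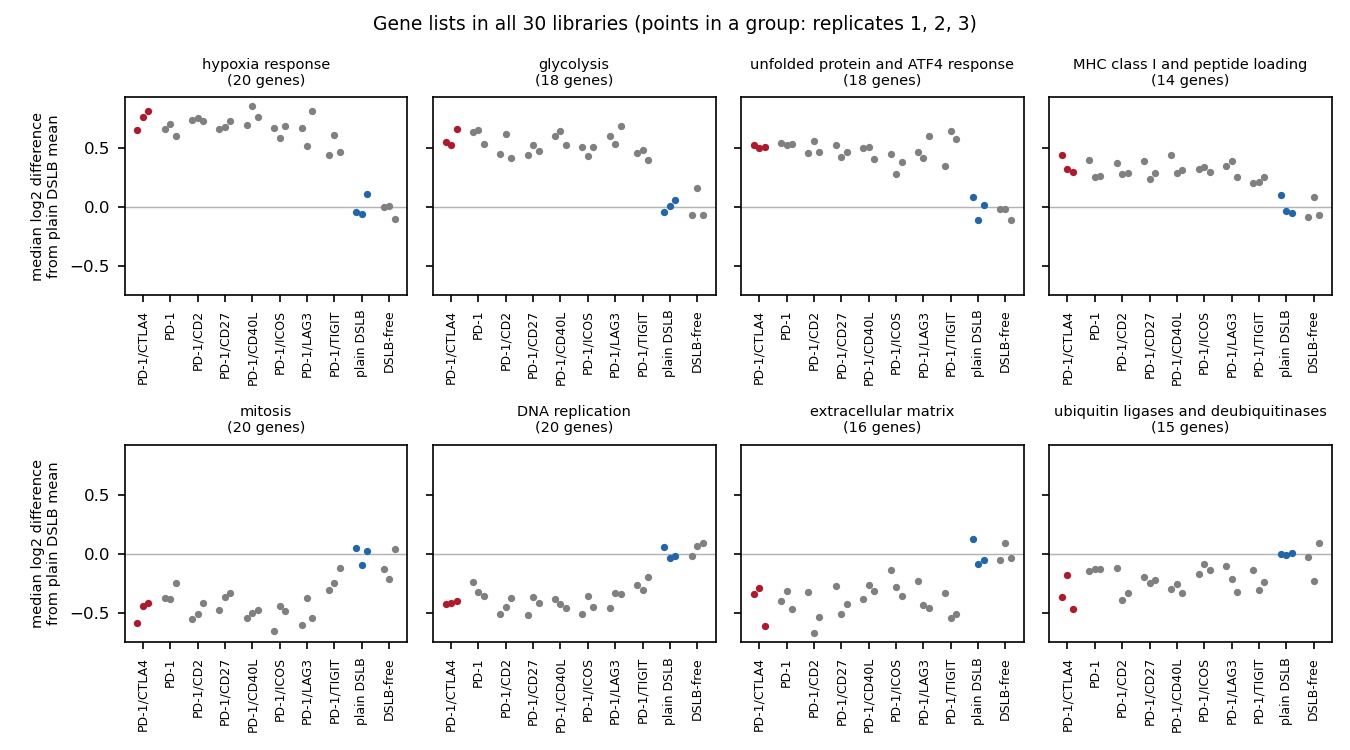
Median log2 difference from the plain DSLB mean for 8 gene lists in each of the 30 libraries, with PD-1/CTLA4 in red at the left, the other 7 PD-1 groups and tumoroids without DSLBs in grey and plain DSLBs in blue. For hypoxia response all 24 libraries with PD-1 droplets lay above both control groups, at 0.44 to 0.85 against −0.11 to 0.11.

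The 8 genes called between PD-1/CTLA4 and PD-1 in the main fit were noncoding RNAs, pseudogenes and an unannotated record. Which genes were called depended on the fit. DESeq2 called 6 of these 8 on all libraries and 5 on the compared ones. On the compared libraries edgeR also called 8 genes, 6 higher and 2 lower, but 3 of them were shared with the main fit. With the 3 libraries that stood apart left out, 2 of the 8 were called. SCARNA7, a small RNA of Cajal bodies that guides modification of spliceosomal RNA (chr3:160514907-160515236), had 0.856, 0.917 and 0.902 CPM with PD-1/CTLA4, 0.125, 0.0556 and 0.0583 CPM with PD-1 and 0.0530, 0.132 and 0.0763 CPM with plain DSLBs. MALAT1, an abundant lncRNA of nuclear speckles (chr11:65497640-65508073), had 2552, 2869 and 2046 CPM with PD-1/CTLA4 and 927, 967 and 895 CPM with plain DSLBs (log2 fold change 1.42 with a standard error of 0.210; edgeR, adjusted p = 2.39e-05), and it differed from PD-1 by 1.23. PD-1 alone against plain DSLBs gave 0.20 for MALAT1 (edgeR adjusted p = 0.539). The other 6 were MIOS-DT (1.04 over PD-1), ENSG00000280156.1 (2.59), MTCO1P12 (0.69), SNRPEP2 (1.69), THUMPD3-AS1 (0.69) and SNHG3 (0.69), of which THUMPD3-AS1 and SNHG3 did not differ from plain DSLBs past the test (0.31 and 0.28). THUMPD3-AS1 and SNHG3 averaged 14.9 and 58.3 CPM with PD-1/CTLA4, 9.22 and 36.2 CPM with PD-1 and 11.9 and 48.0 CPM with plain DSLBs. Both averaged more with CD2 (18.3 and 65.4 CPM) or CD27 (19.5 and 66.9 CPM) beside PD-1. MIOS-DT averaged 4.22 CPM, against 4.52 CPM with CD27. MTCO1P12, SNRPEP2 and ENSG00000280156.1 had their highest group mean with PD-1/CTLA4, the last at 0.649 CPM against 0.107 CPM with PD-1, near the level of 3 counts. SCARNA7 was high in 3 further groups. It stood at 0.557 to 1.08 CPM in all 12 libraries with CTLA4, CD2, CD27 or CD40L beside PD-1, and at 0 to 0.133 CPM in all 18 libraries of the other 6 groups. MALAT1 averaged 2489 CPM with PD-1/CTLA4 and 1953 to 1988 CPM in the groups with CD2, CD27 or CD40L beside PD-1, against 930 to 1499 CPM in the other 6 groups, and here single libraries overlapped. Against the mean of the other 7 PD-1 groups SCARNA7 was the only gene called (0.00543%, log2 difference 2.33), with 1690 genes at an unadjusted p below 0.05, 7 called by DESeq2 on all libraries and 8 by edgeR without PD-1/CTLA4 replicate 2. DESeq2 on the compared libraries called 26 genes, and SCARNA7 was not among them. The labels give no library preparation or sequencing date, and the part of such a batch in these levels was not tested.

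**Figure D5:**
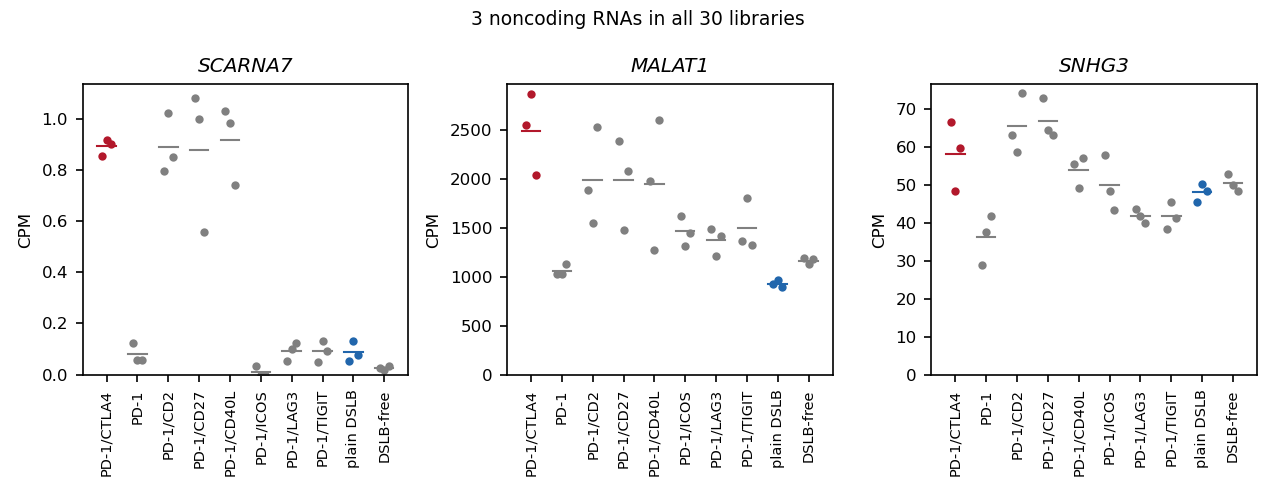
Level in CPM of SCARNA7, MALAT1 and SNHG3 in all 30 libraries, with a point per library, a line at the group mean, PD-1/CTLA4 in red at the left and plain DSLBs in blue. SCARNA7 was at 0.557 CPM or more in the groups with CTLA4, CD2, CD27 or CD40L beside PD-1 and at 0.133 CPM or less in the other 6.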

How the data were processed

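Groups and replicate numbers came from the sample titles, which call the cultures biological replicates. Per the labels, directional libraries were made from 150 ng of total RNA, and per the study's methods they were read for 75 nt from one end, aligned to hg38 with STAR and quantified with RSEM. Trim Galore 0.3.3, SAMtools 1.3.1 and FastQC 0.11.2 stand in the submitters' processing notes. Which annotation release and strand setting were used, and whether poly(A) RNA was selected or rRNA depleted, cannot be read from the labels or methods, so overlapping and antisense genes are uncertain. The deposited expected counts are RSEM estimates per gene, not normalized by the authors, and were rounded to whole numbers. TPM, as deposited, is the authors' abundance estimate scaled by length and library, and served only for shares of library content. Gene length is another value of the deposited files and served for the length trend. Of 60483 gene records, 18424 passed filterByExpr by group. One edgeR 4.0.16 model (quasi-likelihood, robust, TMM) of all 30 libraries in R 4.3.3 gave every comparison, with a biological coefficient of variation of 0.0942. Shares of library content were compared by an exact two-sided permutation test, whose smallest p for 3 against 3 is 0.1. Gene positions on GRCh38 were looked up by identifier in GENCODE v44. Promoters are those of RefSeq on GRCh38.p14. The steps were tested on simulated counts.

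Alternatives were RLE factors, DESeq2 1.42.0, limma-voom (limma 3.58.1), edgeR on the compared groups, other filters, protein-coding genes only, a length or GC trend removed per library (5 spline degrees of freedom), a replicate block, a threshold of 0.1 and libraries left out. The genes and gene lists were chosen with earlier results of these data known, so they are no independent support. The text names up to 15 largest rises and falls with a mean of at least 50 counts and no overlap, the 4 binding partners, up to 4 members per list (those past the test first) and genes called against the other PD-1 groups; further list members and the genes of the last part were chosen after their values were seen. Some results that the rule would name are not reported here.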

Additional observations from a re-analysis of the deposited data

Results flagged for a closer look

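The response to PD-1/CTLA4 DSLBs differed from that to PD-1 DSLBs, by a direct test of the difference (edgeR, adjusted p below 0.05), for 8 genes. The log2 differences were 3.46 for SCARNA7, 2.59 for ENSG00000280156.1, 1.69 for SNRPEP2, 1.23 for MALAT1, 1.04 for MIOS-DT, 0.69 for MTCO1P12, 0.69 for THUMPD3-AS1 and 0.69 for SNHG3. SCARNA7 also differed from the mean of the other 7 PD-1 groups, by 2.33, but it was not particular to PD-1/CTLA4. It averaged 0.89 CPM with PD-1/CTLA4 and 0.89, 0.88 and 0.92 CPM with CD2, CD27 and CD40L beside PD-1. Libraries with PD-1 alone or with ICOS, LAG3 or TIGIT beside it had at most 0.133 CPM. With 3 libraries per group no single library was tested for standing apart.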

How the results depend on the processing

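Of 234 named genes called against plain DSLBs, 170 kept their direction and call under every one of 20 alternatives that could be fitted, and no fit without 1 library reversed one. Removing the length trend turned the sign of NORAD (0.04) and PRKD3 (0.02) and left 1902 genes lower than plain DSLBs. Leaving out 1 library at a time gave 2033 to 3225 genes higher and 2431 to 3616 lower. For PD-1/CTLA4 against PD-1 the range was 1 to 75, the highest without PD-1/CTLA4 replicate 2 and the lowest without replicate 1 of either group; for the other 7 PD-1 groups it was 1 to 8, for PD-1 against plain DSLBs 2798 to 3293 and for PD-1/CTLA4 against no DSLBs 4335 to 6532. The count against PD-1 was 86 with DESeq2 on all libraries, 141 with DESeq2 on the compared ones, 699 without a filter, 5 with a mean of at least 100 counts, 0 with protein-coding genes only (1715 at an unadjusted p below 0.05), 30 without the GC trend, 13 at a threshold of 0.1, 4 without 3 libraries that stood apart (replicate 1 of PD-1, replicate 2 of DSLB-free and replicate 3 of PD-1/LAG3) and 1198 without these and PD-1/CTLA4 replicate 2. Against the mean of the other 7 PD-1 groups it was 7 and 26 with DESeq2, 508 without a filter, 0 with a mean of at least 100 counts (1325 at an unadjusted p below 0.05), 0 with protein-coding genes only (1427) and 2697 without the 4 libraries. SCARNA7 was among the 7 with DESeq2 on all libraries but not among the 26 with DESeq2 on the compared libraries. On the compared libraries only, edgeR called 6138 genes for PD-1 and 6156 for PD-1/CTLA4 against plain DSLBs. For PD-1/CTLA4 against no DSLBs edgeR called 3261 on the compared libraries and DESeq2 3785. The causes of these shifts were not tested. The mitochondrial share differed by 0.0717 percentage points in counts and −0.86 in TPM (exact permutation p = 1 and 0.5, n = 3 each), the noncoding share by 0.064 in counts and 0.256 in TPM (exact permutation p = 0.2 and 0.1), and the ribosomal protein share by 1.59 in counts and 2.85 in TPM (exact permutation p = 0.1 in both). With the replicate block, 3187 genes were higher and 3240 lower, and 8 were called against PD-1. Deviations of same-numbered libraries correlated at 0.074, 0.019 and 0.069, and those of differently numbered ones at −0.079 to 0.007. Over all pairs of groups the medians were 0.003 for the same and −0.016 for different numbers. The paper's methods describe parallel biological replicates of the whole set of conditions, and whether the numbers follow them is not stated. The main fit did not read the numbers as pairs, whereas the replicate block did. Genes of few counts, the 4 binding partners among them, are limited by depth.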

Other observations

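Some of the genes with the smallest p against plain DSLBs belonged to none of the lists; they are named here with their values already known. RRAGD, a GTPase that recruits mTORC1 to lysosomes, had 31.5, 33.8 and 32.0 CPM with PD-1/CTLA4 and 15.2, 14.6 and 14.4 CPM with plain DSLBs (log2 fold change 1.14, edgeR adjusted p = 1.31e-12). DHRS3, a retinaldehyde reductase, averaged 43.9 ± 5.86 CPM against 15.3 ± 0.789 CPM (1.52). GJA1, a gap junction connexin, was at 46.4, 49.1 and 41.3 CPM against 102, 112 and 110 CPM (−1.24), CD24, a surface glycoprotein of epithelial tumors, at 272, 283 and 274 CPM against 594, 610 and 625 CPM (−1.14), and HAS3, a hyaluronan synthase, at 7.22 ± 1.18 CPM against 19.6 ± 0.512 CPM (−1.43). PIEZO2, a stretch-gated channel, averaged 7.45 ± 1.18 CPM against 23.4 ± 1.30 CPM (−1.64), and PCSK6, a protease that activates secreted precursors, 21.7 ± 0.604 CPM against 43.5 ± 2.08 CPM (−1.0). None of these 7 differed from PD-1 alone past the test.

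Of 10 pancreatic cancer drivers and lineage factors 1 was higher and 3 were lower (median log2 fold change −0.09). With a mean of at least 100 counts 8 were tested, and none was higher and 2 were lower. KLF5, a transcription factor of epithelia, fell to 4.66 ± 0.436 CPM against 9.07 ± 0.201 CPM (−0.95), and PDX1, a factor of the pancreatic lineage, rose to 1.42 ± 0.284 CPM against 0.802 ± 0.132 CPM (0.84). Of 18 death receptor and BCL2 family genes 5 were higher and 3 lower, near the 17.0% and 17.2% of all genes, with the TRAIL receptor TNFRSF10B higher by 0.37 (3 were higher without PD-1/CTLA4 replicate 1 or without plain DSLB replicate 2). Of 17 lysosomal genes 9 were higher and 1 lower (median log2 fold change 0.17), and of 13 mitochondrially encoded mRNAs edgeR called none (none at an unadjusted p below 0.05 either) and DESeq2 on the compared libraries called 1 higher and 1 lower. Without a filter on low counts edgeR called 1 higher and 5 lower, and it called 5 lower when the 4 deviating libraries were left out. Their medians were −0.23, 0.14 and −0.44 in PD-1/CTLA4 replicates 1, 2 and 3. Of 2344 lncRNAs 15.3% were higher and 2.6% lower, against 17.0% and 17.2% of all genes, with a median log2 fold change of 0.22.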
